A study of Mus musculus with 4 samples.

Results

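The genes described here are 10 of the epidermal growth factor (EGF) family, 7 ligands (Areg, Ereg, Hbegf, Tgfa, Btc, Epgn and Nrg1) and 3 receptors (Egfr, Erbb2 and Erbb4). They were found by symbol among 38921 gene intervals of the mm10 build, and each had a single row. They were measured by poly-A RNA sequencing of fibroblasts grown from mouse pancreas in serum-containing medium, in 2 libraries from KPC animals and 2 from wild type animals, all of mixed strain. The labels give the genotypes as KPC and wild type and name no allele, age, animal or culture. KPC usually names a pancreatic cancer model in which a Cre driven by the Pdx1 promoter switches on engineered alleles in pancreatic epithelium. Fibroblasts of that model are stroma and not the cells that Cre is aimed at. Whether the KPC cultures held cells with such alleles was not tested. The question is whether KPC and wild type fibroblasts differ in the expression of these genes, with the ligands set against the receptors.

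EGF family ligands are made as membrane-anchored precursors and are released by metalloproteases such as the product of Adam17. Amphiregulin (Areg), epigen (Epgn) and TGF-alpha (Tgfa) bind the EGF receptor. Epiregulin (Ereg), betacellulin (Btc) and HB-EGF (Hbegf) bind the EGF receptor and ErbB4, and neuregulin 1 (Nrg1) binds ErbB3 and ErbB4. ErbB2 has no known ligand of its own and acts as the partner of the other receptors. Ligand-bound dimers feed the Ras and MAP kinase and the PI3 kinase pathways, and in pancreatic tumours ligands of this family pass between stroma and epithelium.

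Epgn, Ereg, Areg and Btc lie in a cluster on chromosome 5, from 91027464 to 91402994 in mm10, and the largest differences between KPC and wild type libraries among the 10 members were those of Areg and Epgn. RefSeq promoters (GRCm38.p6) were matched for 7 of the 10 members. The 250 bases before the start are shown for Areg, Epgn and Btc, the members of the cluster that were matched, since the data below set their levels side by side. They lie at chr5:91139349-91139598 (plus strand), chr5:91027267-91027516 (plus strand) and chr5:91402995-91403244 (minus strand). Capitals mark matches on either strand to the cAMP response element TGACGTCA, the Sp1 motif GGGCGG or the TATA motif TATAAA.
Areg: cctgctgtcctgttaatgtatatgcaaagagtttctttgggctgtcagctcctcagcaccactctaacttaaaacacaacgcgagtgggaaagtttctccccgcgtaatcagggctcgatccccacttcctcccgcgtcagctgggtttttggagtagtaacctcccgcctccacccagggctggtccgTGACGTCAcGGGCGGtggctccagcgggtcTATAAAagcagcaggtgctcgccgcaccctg
Epgn: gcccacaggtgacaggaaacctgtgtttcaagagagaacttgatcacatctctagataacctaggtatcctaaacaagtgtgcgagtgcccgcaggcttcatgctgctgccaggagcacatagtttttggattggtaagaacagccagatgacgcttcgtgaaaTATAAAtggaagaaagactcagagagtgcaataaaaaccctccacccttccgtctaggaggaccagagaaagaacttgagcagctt
Btc: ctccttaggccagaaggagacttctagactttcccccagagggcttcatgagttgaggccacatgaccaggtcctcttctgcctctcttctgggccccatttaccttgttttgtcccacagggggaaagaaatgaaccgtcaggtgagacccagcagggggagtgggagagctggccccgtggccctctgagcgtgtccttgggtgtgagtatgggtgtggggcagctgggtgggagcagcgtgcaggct
The Areg window held all 3 motifs, at 61, 52 and 31 bases before the start. Of the 32851 RefSeq promoter windows of this length, 1.55% held the cAMP response element, 32.7% the Sp1 motif and 12.4% the TATA motif. The Epgn window held the TATA motif, 86 bases before the RefSeq start. That window ends at 91027516, inside the deposited Epgn interval, which starts at 91027464. The Btc window held none of these letters. The AP-1 motif TGANTCA and the TEAD motif CATTCC, present in 6.75% and 12.6% of windows, were also searched on both strands and were not in these 3 windows. A match describes the letters of the window and not binding.

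Counts per library summed to between 57926327 and 68312367 in KPC and between 22302141 and 53232634 in wild type. Wild type 2 is therefore the library with the least precision. Levels are CPM (counts scaled to library size) after TMM correction, and 3 counts, the limit that a count of 0 allows, correspond to 0.0442 to 0.134 CPM across the libraries. All 10 members passed the filter on low counts. Of 23046 rows tested with edgeR's quasi-likelihood test, 0 were called higher (0%) and 0 lower (0%) at an adjusted p of 0.05, limma voom called 0, and DESeq2 called 333 higher (1.44%) and 294 lower (1.28%). At an unadjusted p under 0.05 edgeR gave 1090 rows higher (4.73%) and 909 lower (3.94%). Of the 10 members, 0 were called by any of these tools at the adjusted threshold, and Areg was the member with an unadjusted p under 0.05. The labels call the libraries biological replicates without naming animals, so a p-value reflects the spread among these libraries alone.

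Areg, which encodes an EGF receptor ligand made by epithelia and by stromal and immune cells, differed most. It stood at 29.8 and 3.82 CPM in KPC 1 and KPC 2, against 0.171 and 0.939 CPM in wild type 1 and wild type 2. Both KPC libraries were above both wild type libraries, and the lower KPC value was 4.07 times the higher wild type value. The counts behind these levels were 1752 and 259 in KPC and 9 and 21 in wild type. Exact 95% Poisson intervals, which cover counting error only, were 28.4 to 31.2 and 3.37 to 4.31 CPM in KPC and 0.0783 to 0.325 and 0.581 to 1.44 CPM in wild type. The intervals did not overlap between the groups, and neither did those of libraries within a group. Its mean was 16.8 ± 18.4 CPM in KPC and 0.555 ± 0.543 CPM in wild type (SD, n = 2 each). The log2 fold change was 5.07 ± 1.38 (SE), rank 745 of 23046 by p, with an unadjusted p of 0.0155 and an adjusted p of 0.48 in edgeR, so it did not pass the test. The DESeq2 adjusted p was 0.0583. KPC 1 carries much of this difference: without it the log2 fold change was 2.88, and without wild type 1, wild type 2 or KPC 2 it was 4.16, 6.60 and 5.87.

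Epgn, an EGF receptor ligand of epithelia, was the other ligand whose groups did not overlap, at low counts. It had 40 and 22 counts in KPC 1 and KPC 2 (0.68 and 0.324 CPM), against 2 and 5 counts in wild type 1 and wild type 2 (0.0380 and 0.224 CPM). The lower KPC level was 1.45 times the higher wild type level, and the exact 95% Poisson interval of KPC 2 (0.203 to 0.491 CPM) overlapped that of wild type 2 (0.0726 to 0.522 CPM). Its log2 fold change was 2.22 ± 0.90 (SE), with an adjusted p of 0.584 in edgeR. It was 1.15 without wild type 1, 1.56 without KPC 1, 2.61 without KPC 2 and 3.65 without wild type 2. With Areg, 2 of 7 ligands had both KPC libraries above every wild type library, beside 20.6% of all rows tested. In bulk RNA, more cells that express a gene and more RNA per cell cannot be told apart.

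Btc, a ligand of the EGF receptor and ErbB4 and a neighbour of Areg on chromosome 5, was high in a single library. It stood at 6.68 CPM in KPC 1 and 1.52 CPM in KPC 2, against 1.46 and 1.52 CPM in wild type 1 and wild type 2. KPC 2 lay at the level of the wild type libraries. The log2 fold change was 1.46 ± 0.74 (SE, adjusted p = 0.635 in edgeR), and it was 0.0335 without KPC 1. Tgfa was spread as widely within the groups as between them. It stood at 8.74 and 1.84 CPM in KPC 1 and KPC 2, against 4.17 and 0.537 CPM in wild type 1 and wild type 2. The groups overlapped, and its log2 fold change of 1.13 ± 1.13 (SE, adjusted p = 0.818 in edgeR) was -0.37 without KPC 1 and 3.29 without wild type 1.

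**Figure D1:**
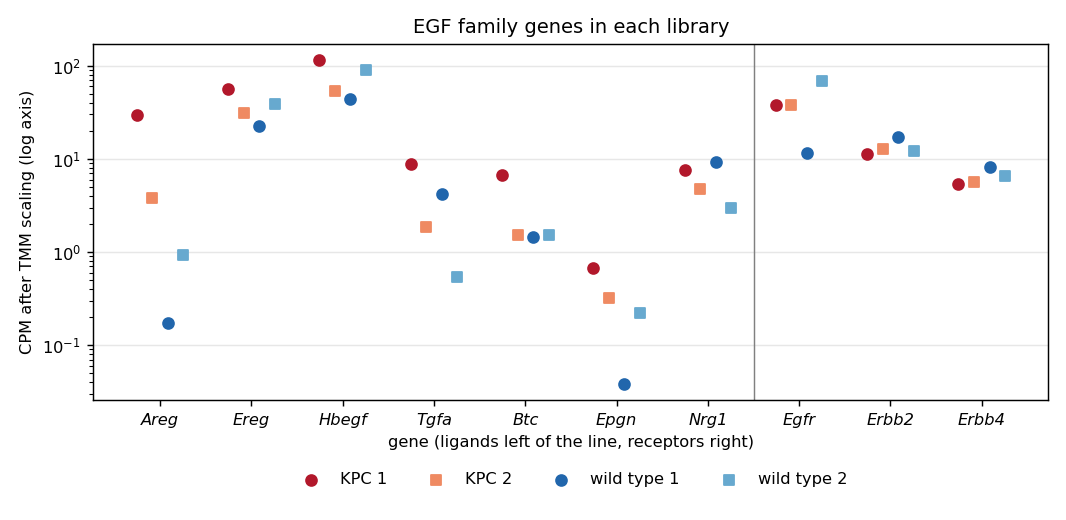
CPM after TMM scaling (log axis) of the 10 EGF family genes, with a point for each KPC and wild type library. The KPC points of Areg and Epgn lie above their wild type points, those of Erbb4 lie below, and the groups overlap for the other 7.

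Ereg and Hbegf, the ligands with the most counts, overlapped between the groups. Ereg, a broad-acting ligand, stood at 56.4 and 31.1 CPM in KPC 1 and KPC 2, against 22.4 and 38.6 CPM in wild type 1 and wild type 2. The log2 fold change was 0.52 ± 0.41 (SE, adjusted p = 0.761 in edgeR), and it was 0.0351 without KPC 1, 0.18 without wild type 1, 0.88 without KPC 2 and 0.97 without wild type 2. Hbegf, whose product also binds heparan sulfate, stood at 114.9 and 53.6 CPM in KPC 1 and KPC 2, against 44.3 and 90.3 CPM in wild type 1 and wild type 2. Its log2 fold change was 0.32 ± 0.51 (SE, adjusted p = 0.901 in edgeR), and it was -0.32 without KPC 1. For both genes KPC 1 was the highest library and wild type 1 the lowest. Nrg1 had the smallest difference of the ligands. It stood at 7.63 and 4.78 CPM in KPC 1 and KPC 2, against 9.36 and 2.996 CPM in wild type 1 and wild type 2. Both KPC values lay between the wild type values, and the log2 fold change was -0.01 ± 0.60 (SE, adjusted p = 0.998 in edgeR), of either sign across the processing alternatives. The Nrg1 interval holds 9.37% of the span that GENCODE M21 gives the gene and 5201 of its 10351 exon bases, so reads of exon bases outside it, at both ends of the gene, were not counted.

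Egfr, the receptor of 6 of these ligands, differed more between the wild type libraries than between the groups. It stood at 37.9 and 38.3 CPM in KPC 1 and KPC 2, against 11.5 and 69.4 CPM in wild type 1 and wild type 2. The KPC libraries were alike and lay between the wild type libraries, which were 6.03-fold apart, with wild type 2 the higher. Areg was likewise 5.49-fold higher in wild type 2 than in wild type 1. So was Epgn, 5.88-fold, from 2 counts in wild type 1 and 5 in wild type 2. A ratio above 5 that way, a limit chosen after the values were seen, was found in 2.51% of all rows tested. Tgfa ran the opposite way, 7.76-fold higher in wild type 1, and 1.77% of all rows tested passed that limit there. The mean of Egfr was 38.1 ± 0.305 CPM in KPC and 40.5 ± 41.0 CPM in wild type (SD, n = 2 each). The log2 fold change was -0.08 ± 0.81 (SE, adjusted p = 0.991 in edgeR). Its direction depended on which wild type library was compared. Without wild type 2 the log2 fold change was 1.73 ± 0.22 (SE), and without wild type 1 it was -0.86 ± 0.19 (SE). In such fits the lone library is assumed to vary like the other group.

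Erbb2 and Erbb4 had the smallest standard errors of the 10 members. Erbb2, the receptor that binds no ligand of its own, stood at 11.4 and 12.8 CPM in KPC 1 and KPC 2, against 17.2 and 12.1 CPM in wild type 1 and wild type 2. The groups overlapped, with a log2 fold change of -0.28 ± 0.25 (SE, adjusted p = 0.793 in edgeR) that was 0.0074 without wild type 1. The Erbb2 interval ends within that of Mien1, a gene with 812 to 1769 counts per library, so reads at that end may be counted for both. Erbb4, a neuregulin receptor, stood at 5.44 and 5.71 CPM in KPC 1 and KPC 2, against 8.16 and 6.62 CPM in wild type 1 and wild type 2. Both KPC libraries were below both wild type libraries, as were 20.5% of all rows tested. In either direction the groups did not overlap for 3 of 10 members, beside 41.1% of all rows tested. The log2 fold change was -0.41 ± 0.24 (SE, adjusted p = 0.668 in edgeR) and lay between -0.55 and -0.25 with each library left out in turn.

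**Figure D2:**
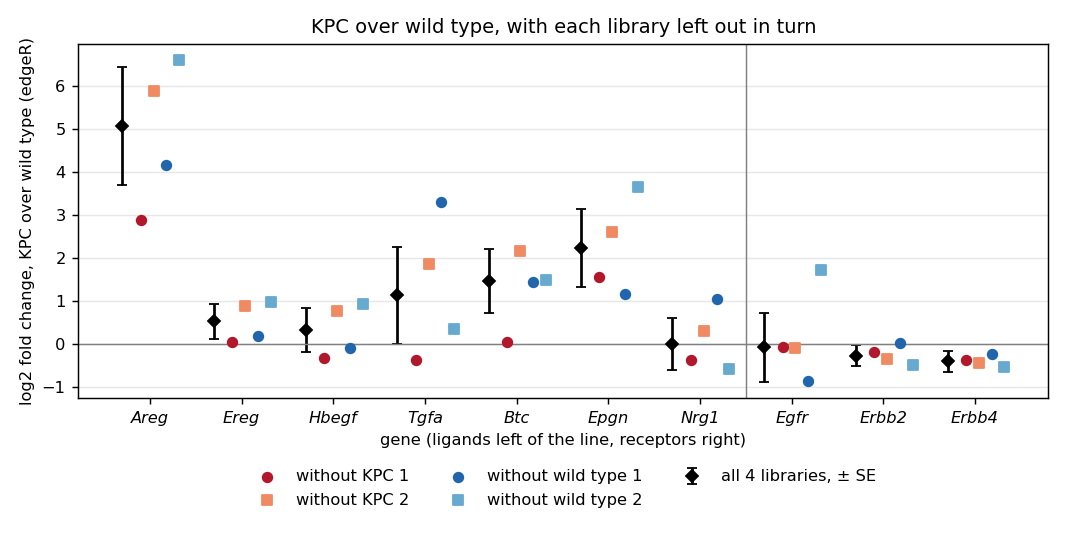
Log2 fold change of KPC over wild type from edgeR for each gene, with all 4 libraries (black, ± SE) and without each library (coloured points). Areg stays between 2.88 and 6.60, and Egfr runs from -0.86 to 1.73.

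Set against each other, the ligands had a median log2 fold change of 1.13 and the receptors of -0.28, beside a median of -0.011 over all rows tested. Of the ligands, 6 of 7 had a positive log2 fold change (48.8% of all rows tested), and of the receptors 3 of 3 had a negative one (51.2%). The difference of the medians, 1.40, is a description with no test, since the members were chosen with earlier results known. It was 0.22 without KPC 1 and 1.40 to 2.23 without any other library. KPC 1 also stood above KPC 2 in 7 of 7 ligands and 0 of 3 receptors, where 49.7% of all rows tested did so. The ratio of KPC 1 to KPC 2 was 1.60 to 7.80 among the ligands and 0.892 to 0.989 among the receptors. It exceeded 4 for Areg, Btc and Tgfa, a limit chosen after the values were seen and passed by 0.994% of all rows tested. KPC 1 was the highest of the 4 libraries for 6 of 7 ligands and 0 of 3 receptors, beside 25.5% of all rows tested.

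To compare genes with each other, CPM were divided by the length of GENCODE M21 exons inside each interval. On this scale Hbegf and Ereg were the leading ligands in KPC 2 and both wild type libraries. Hbegf had 23.8 and 11.1 CPM per kb in KPC 1 and KPC 2, against 9.18 and 18.7 CPM per kb in wild type 1 and wild type 2. Ereg had 13.7 and 7.53 CPM per kb in KPC 1 and KPC 2, against 5.43 and 9.35 CPM per kb in wild type 1 and wild type 2. Areg, at 24.8 and 3.18 CPM per kb in KPC 1 and KPC 2 against 0.143 and 0.783 CPM per kb in wild type 1 and wild type 2, came level with Hbegf in KPC 1. Areg made up 37.1% and 13.5% of the summed ligand level in KPC 1 and KPC 2, against 0.813% and 2.62% in wild type 1 and wild type 2. Each of Tgfa, Btc and Epgn made up at most 3.83% in any library, and Nrg1 between 1.92% and 10.2%. The summed ligand level was 67.01 and 23.5 CPM per kb in KPC 1 and KPC 2, against 17.6 and 30.0 CPM per kb in wild type 1 and wild type 2. The groups overlapped in that sum.

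Among the receptors, Egfr led in 3 libraries and Erbb2 in wild type 1. Egfr had 3.34 and 3.38 CPM per kb in KPC 1 and KPC 2, against 1.02 and 6.13 CPM per kb in wild type 1 and wild type 2. Erbb2 had 2.19 and 2.46 CPM per kb in KPC 1 and KPC 2, against 3.30 and 2.32 CPM per kb in wild type 1 and wild type 2. Erbb4 was last in every library, at 0.44 to 0.462 CPM per kb in KPC and 0.536 to 0.661 CPM per kb in wild type. The summed receptor level was 5.98 and 6.30 CPM per kb in KPC 1 and KPC 2, against 4.98 and 8.99 CPM per kb in wild type 1 and wild type 2. The ratio of summed ligands to summed receptors was therefore 11.2 in KPC 1 and 3.73 in KPC 2, against 3.53 and 3.33 in wild type 1 and wild type 2. KPC 1 stood apart in this ratio, and KPC 2 lay close to the wild type libraries. Per kb of the deposited interval, introns included, Erbb2 was above Egfr in all 4 libraries and Areg was second to Hbegf in KPC 1.

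**Figure D3:**
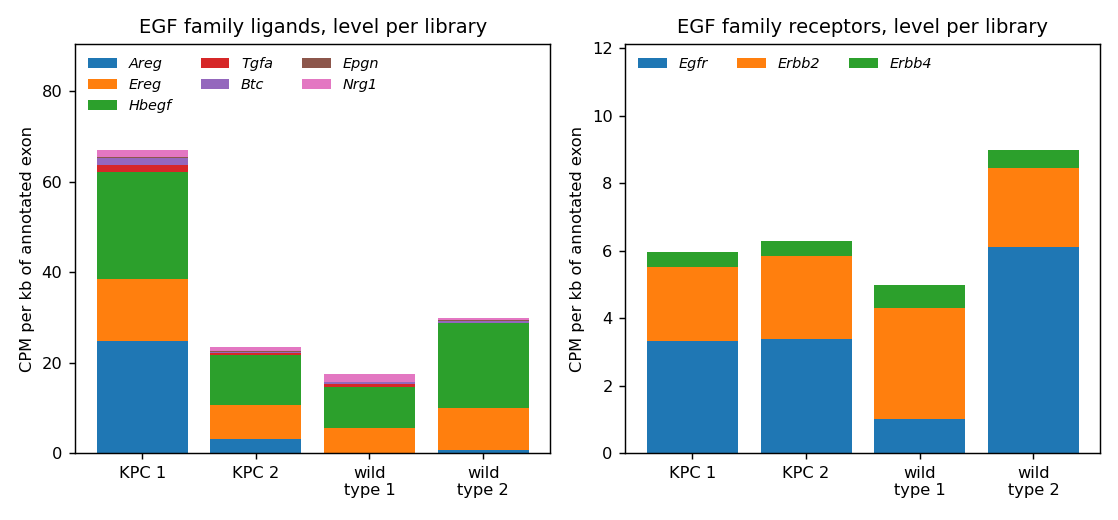
Level of each ligand (left) and receptor (right) as CPM per kb of annotated exon, stacked by library, on separate axes. Areg fills 37.1% of the ligand bar in KPC 1 and 0.813% in wild type 1, and Egfr is smallest in wild type 1.

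Also deposited was the number of bases that reads covered. It comes from the same reads as the counts and is not separate evidence of a difference. Reads covered 2261 and 1405 bases of the Areg interval in KPC 1 and KPC 2, against 250 and 540 bases in wild type 1 and wild type 2. Exons inside that interval span 1199 bases, so at least 1062 and 206 covered bases lay outside annotated exons in KPC 1 and KPC 2. Epgn reads covered 950 and 573 bases in KPC 1 and KPC 2, against 74 and 111 bases in wild type 1 and wild type 2, of 1807 exon bases. For both genes more bases were covered in each KPC library than in either wild type library. The depth at each base is not given. Covered bases are not scaled to library size, which was smallest in wild type 2. Egfr reads covered more than the 11326 exon bases in both KPC libraries, with 12784 and 11502 bases, against 8834 and 9687 bases in wild type 1 and wild type 2. Erbb4 reads covered 8440 and 8742 bases in KPC 1 and KPC 2, against 10468 and 4144 bases in wild type 1 and wild type 2, of an interval of 1075873 bases of which exons make up 1.15%. How many of these reads came from introns cannot be read from the tables.

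**Figure D4:**
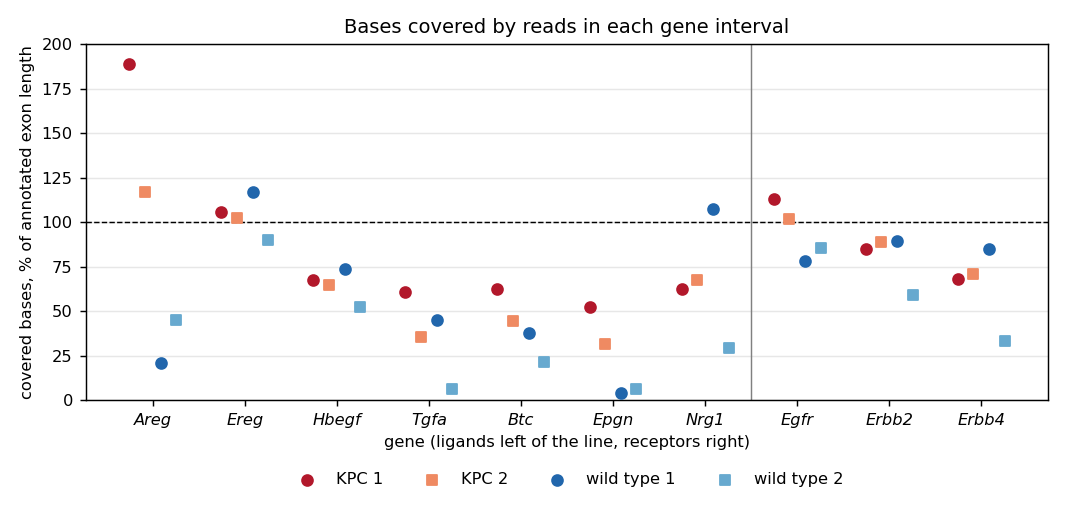
Bases covered by reads in each gene interval, as a percent of the annotated exon length inside it, with a point for each KPC and wild type library. Points above the dashed line at 100% hold bases outside annotated exons, as for Areg in KPC 1 (189%) and KPC 2 (117%).

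The cultures carried high levels of collagen and vimentin RNA, with markers of other cell types beside them. The 9 fibroblast markers summed to 10200 and 12100 CPM in KPC 1 and KPC 2, against 11600 and 10400 CPM in wild type 1 and wild type 2, and none was at 0. Most of these sums came from Col1a1, Col1a2, Col3a1 and Vim. Dcn was lower, at 21.9 and 53.8 CPM in KPC 1 and KPC 2, against 14.4 and 63.1 CPM in wild type 1 and wild type 2. Pdgfra stood at 13.8 and 48.7 CPM in KPC 1 and KPC 2, against 19.4 and 34.6 CPM in wild type 1 and wild type 2. Lum stood at 1.496 and 7.34 CPM in KPC 1 and KPC 2, against 0.171 and 3.31 CPM in wild type 1 and wild type 2. The 10 epithelial markers summed to 1170 and 448 CPM in KPC 1 and KPC 2, against 30.6 and 430 CPM in wild type 1 and wild type 2, again with none at 0. Wild type 1 was the library with the least epithelial RNA by this sum, and 3 of the 10 markers were higher in both KPC libraries, beside 20.6% of all rows tested. The 5 mesothelial markers summed to 108 and 30.4 CPM in KPC 1 and KPC 2, against 18.6 and 25.4 CPM in wild type 1 and wild type 2. The 10 macrophage markers summed to 831 and 1730 CPM in KPC 1 and KPC 2, against 70.4 and 227 CPM in wild type 1 and wild type 2, and all 10 were higher in both KPC libraries, beside the same 20.6%. Areg and Epgn shared the library order of both the epithelial and the mesothelial sum, from KPC 1 through KPC 2 and wild type 2 down to wild type 1, an order found in 7.27% of all rows tested. Of the single markers, 3 of 10 epithelial ones (Cdh1, Krt19 and Muc1) and 2 of 5 mesothelial ones (Msln and Wt1) had that order. The macrophage marker Mrc1 and the acinar marker Cela1 had it too, 1 of 10 and 1 of 6 in their lists. The epithelial sum of KPC 1 was mostly Krt8 and Krt18, with 489.8 and 465 CPM, and its mesothelial sum mostly Msln, with 76.7 CPM. Krt8 and Krt18 were lower in KPC 2 (85.1 and 120.9 CPM) than in wild type 2 (145.7 and 133.7 CPM). Another 5 epithelial markers, Epcam, Krt7, Cldn4, Cldn7 and Esrp1, were lower in KPC 1 than in KPC 2 and wild type 2. Epcam, for example, stood at 5.41 and 18.1 CPM in KPC 1 and KPC 2, against 0.19 and 13.6 CPM in wild type 1 and wild type 2. Egfr followed neither order in full, being highest in wild type 2, though it too was lowest in wild type 1. Whether epithelial, mesothelial or macrophage RNA had a part in the Areg, Epgn and Egfr values was not tested.

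Wild type 1 and wild type 2 each stood apart by a further cell type. The 6 endothelial markers summed to 15.9 and 23.4 CPM in KPC 1 and KPC 2, against 614 and 32.8 CPM in wild type 1 and wild type 2. The 6 Schwann cell markers, of interest because these cells respond to Nrg1, summed to 1.17 and 0.84 CPM in KPC 1 and KPC 2, against 26.7 and 3.67 CPM in wild type 1 and wild type 2, with Foxd3 at 0 in KPC 1. Nrg1 was also highest in wild type 1 (9.36 CPM). It was lowest in wild type 2 (2.996 CPM), where the Schwann sum was above that of either KPC library. The 6 endocrine markers summed to 0.51 and 0.988 CPM in KPC 1 and KPC 2, against 1.71 and 742 CPM in wild type 1 and wild type 2, with Ins1, Gcg and Sst at 0 in KPC 1 and Sst at 0 in KPC 2 and wild type 1. Egfr was highest in wild type 2, the library with the endocrine markers. It was lowest in wild type 1, where the endocrine sum was above that of either KPC library. The 6 acinar markers summed to at most 5.88 CPM in any library, with Cpa1 at 0 in KPC 2 and wild type 1. The part of these cells in the Nrg1 and Egfr values was not tested.

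**Figure D5:**
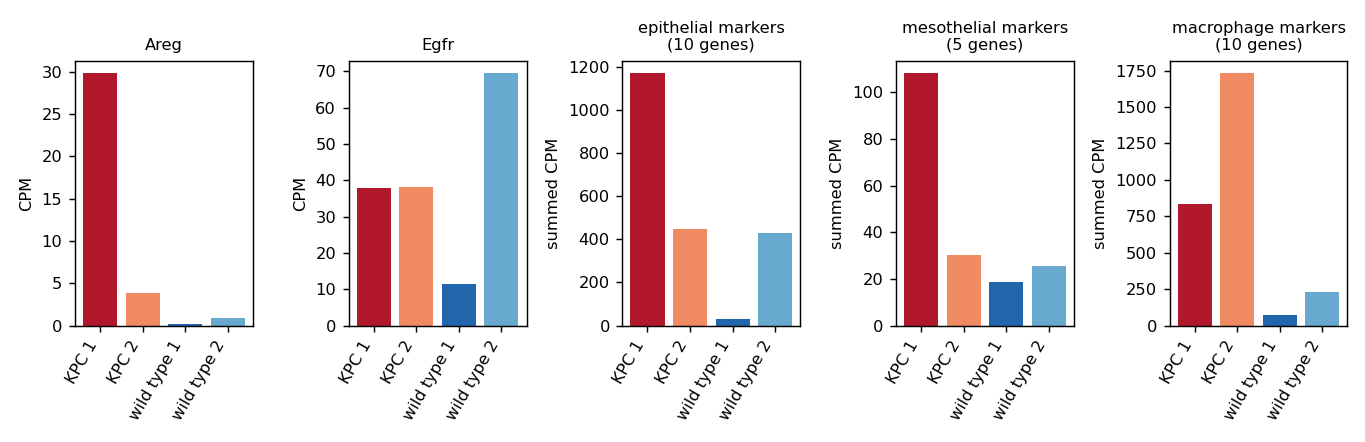
CPM of Areg and Egfr and the summed CPM of epithelial, mesothelial and macrophage markers, as bars for KPC 1, KPC 2, wild type 1 and wild type 2. Areg is highest in KPC 1, as are the epithelial sum, mostly through Krt8 and Krt18, and the mesothelial sum, mostly through Msln. The macrophage sum is highest in KPC 2 (1730 CPM) and Egfr in wild type 2.

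Beyond the members, 38 genes of the pathway in 4 lists were tested, of which 0 passed edgeR's adjusted threshold in either direction. At an unadjusted p under 0.05, 4 were higher and 2 lower, beside 4.73% and 3.94% of all rows tested. Their median log2 fold change was -0.03, beside -0.011 over all rows tested. Of the other ligands and receptor, 0 of 5 had an unadjusted p under 0.05. Nrg4, a neuregulin, stood at 16.6 and 16.97 CPM in KPC 1 and KPC 2, against 15.8 and 15.9 CPM in wild type 1 and wild type 2. Nrg2 stood at 1.55 and 1.75 CPM in KPC 1 and KPC 2, against 2.36 and 2.06 CPM in wild type 1 and wild type 2. For neither gene did the groups overlap, which in either direction held for 41.1% of all rows tested. The log2 fold changes were 0.09 for Nrg4 and -0.42 for Nrg2. Erbb3, the neuregulin receptor that completes the family and was named after its values were seen, stood at 1.16 and 1.83 CPM in KPC 1 and KPC 2, against 1.64 and 1.79 CPM in wild type 1 and wild type 2.

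Among 10 sheddases and their regulators, 2 were higher and 1 lower at an unadjusted p under 0.05 (4.73% and 3.94% of all rows tested). Adam8, a metalloprotease that leukocytes also express, stood at 28.5 and 60.9 CPM in KPC 1 and KPC 2, against 2.26 and 10.8 CPM in wild type 1 and wild type 2. Its log2 fold change was 2.80 ± 0.85 (SE), with an adjusted p of 0.525 in edgeR and 0.0118 in DESeq2. With each library left out in turn, the log2 fold change lay between 2.05 and 4.31. The macrophage sum given above had the same order of libraries as Adam8, and its part was not tested. Rhbdf1 and Rhbdf2, which encode the iRhom partners of ADAM17, differed in opposite directions. Rhbdf2 stood at 13.2 and 8.94 CPM in KPC 1 and KPC 2, against 6.92 and 6.48 CPM in wild type 1 and wild type 2 (log2 fold change 0.72 ± 0.27, SE, adjusted p = 0.574 in edgeR). Rhbdf1 stood at 10.2 and 13.2 CPM in KPC 1 and KPC 2, against 24.8 and 16.4 CPM in wild type 1 and wild type 2 (log2 fold change -0.82 ± 0.29, SE, adjusted p = 0.545 in edgeR). Adam17, the main sheddase of Areg, Hbegf and Tgfa, stood at 28.3 and 30.1 CPM in KPC 1 and KPC 2, against 25.8 and 22.5 CPM in wild type 1 and wild type 2.

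Among 12 negative regulators, 2 were higher and 1 lower at an unadjusted p under 0.05, beside the same 4.73% and 3.94% of all rows. Socs3, a feedback inhibitor of cytokine receptors, stood at 27.98 and 23.3 CPM in KPC 1 and KPC 2, against 5.61 and 12.0 CPM in wild type 1 and wild type 2. Its log2 fold change was 1.55 ± 0.41 (SE), with an adjusted p of 0.462 in edgeR and 0.0319 in DESeq2. With each library left out in turn, the log2 fold change lay between 1.09 and 2.19. Socs5, which promotes EGF receptor turnover, stood at 20.8 and 23.3 CPM in KPC 1 and KPC 2, against 48.4 and 38.7 CPM in wild type 1 and wild type 2. Its log2 fold change was -0.98 ± 0.20 (SE), with an adjusted p of 0.358 in edgeR and 0.00786 in DESeq2. Ptpn1, a phosphatase that acts on the EGF receptor, stood at 32.8 and 29.8 CPM in KPC 1 and KPC 2, against 23.4 and 21.3 CPM in wild type 1 and wild type 2. Errfi1 encodes Mig6, an inhibitor of the receptor kinase that signalling through the receptor induces. It stood at 103 and 138.8 CPM in KPC 1 and KPC 2, against 12.6 and 57.3 CPM in wild type 1 and wild type 2. The groups did not overlap, with a log2 fold change of 1.80 ± 0.73 (SE, adjusted p = 0.59 in edgeR). Without wild type 2 the log2 fold change was 3.27, and without wild type 1 it was 1.08. Errfi1 and Egfr were both lowest in wild type 1, but Errfi1 was highest in KPC 2 and Egfr in wild type 2. The macrophage sum had the same order of libraries as Errfi1. Whether Egfr or macrophage RNA had a part in the Errfi1 values was not tested.

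Of 11 adaptors and signal transducers, 0 had an unadjusted p under 0.05, and the median log2 fold change was -0.07. Gab2, a docking protein, stood at 23.6 and 18.4 CPM in KPC 1 and KPC 2, against 16.97 and 14.7 CPM in wild type 1 and wild type 2. Grb2, the adaptor that links the receptors to Ras activation, stood at 66.9 and 66.0 CPM in KPC 1 and KPC 2, against 53.2 and 64.4 CPM in wild type 1 and wild type 2. Nck1, another adaptor, stood at 13.5 and 12.1 CPM in KPC 1 and KPC 2, against 17.8 and 14.8 CPM in wild type 1 and wild type 2. Gab1, a docking protein, stood at 24.0 and 23.5 CPM in KPC 1 and KPC 2, against 24.9 CPM in both wild type libraries. These 4 of the 11 had groups that did not overlap, 2 in each direction, beside 20.6% of all rows tested higher and 20.5% lower, and their log2 fold changes lay between -0.35 and 0.40.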

How the data were processed

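Poly-A RNA libraries of 2 KPC and 2 wild type cultures were sequenced single-end, per the labels' protocols. Alignment and counting tools listed in the submitters' processing notes, without roles, are TopHat2 2.0.3, bedtools, SAMtools 0.1.18 and FastQC 0.10.1, with the mm10 build. For each library the authors deposited a raw read count per gene interval, the number of covered bases, the interval length and the deposited fraction of the interval covered, which was not used. That the counts are raw and run over whole intervals was read from the values. Deposited starts were printed as they stand, since 76.0% of matched rows start where GENCODE M21 does. The counts carry no strand, and 0 of the 10 members shared all 4 counts with another row.

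The test used edgeR 4.0.16 (R 4.3.3): filterByExpr (minimum count 10), TMM factors (0.988 to 1.02), and a quasi-likelihood F test, two-sided, for KPC over wild type with Benjamini-Hochberg adjustment over 23046 rows. The spread rested on 2 residual and 2.76 prior degrees of freedom. SEs were derived from the unshrunk log2 fold change and F (log2 fold change over root F). An exact permutation of 2 libraries against 2 cannot reach 0.05 and was not used. Alternatives were RLE, upper quartile or no factors, other filters, DESeq2 1.42.0, voom in limma 3.58.1, a replicate block, a threshold of 0.10 and fits without each library in turn.

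The members, pathway lists and marker lists were chosen with earlier results of these data known. All members were named. A pathway gene was named if its unadjusted p was under 0.05 or its groups did not overlap, up to 4 a list by smallest p. Adgre1 was matched by its older symbol Emr1. Figures were drawn with matplotlib 3.10.9.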

Additional observations from a re-analysis of the deposited data

How the results depend on the processing

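Both counts of rows called by edgeR were 0 under RLE, upper quartile or no composition factors, both other count filters, a threshold of 0.10, limma voom and the replicate block, and DESeq2 called 333 higher and 294 lower. With a library left out, edgeR called 0 to 429 rows higher and 0 to 406 lower, most of them without wild type 2. The difference between the ligand and receptor medians ran from 0.22 (without KPC 1) to 2.23 (without KPC 2). Areg, Epgn and Erbb4 kept their direction under every alternative that gave a value, while Ereg and Btc came down to 0.0351 ± 0.43 and 0.0335 ± 0.44 (SE) without KPC 1. Epgn had no value with the filter of 1 CPM in 2 libraries. Nrg1 turned to 0.0159 with no composition factors, 0.0201 with no filter, 0.0033 in DESeq2, 0.0334 in voom and 0.17 with the replicate block, and Egfr to 0.55 in voom and 0.42 with the replicate block. The cause was not tested. Leaving out a library gave -0.32 to 0.93 for Hbegf, -0.37 to 3.29 for Tgfa, -0.59 to 1.05 for Nrg1, -0.86 to 1.73 for Egfr and -0.50 to 0.0074 for Erbb2. The replicate numbers are not known to pair libraries (correlation of same-numbered deviations across rows 0.136), and the block changed no call. Each member had 1 row, so summing rows per symbol was not run. Depth limits Epgn most, at 2 and 5 counts in wild type.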

Other observations

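Nrg3, a neuregulin known from the nervous system, was counted at similar levels everywhere, with 55.5 and 47.5 CPM in KPC 1 and KPC 2, against 50.9 and 60.2 CPM in wild type 1 and wild type 2. Its reads covered 10796 and 10174 bases in KPC 1 and KPC 2, against 12145 and 5771 bases in wild type 1 and wild type 2, of an interval of 1104136 bases with 6817 exon bases. In KPC 1, KPC 2 and wild type 1 some covered bases therefore lay outside its annotated exons. In wild type 2, the library with the smallest summed count, this cannot be told. Egf, the founding ligand of the family, was counted at 1.43 and 2.89 CPM in KPC 1 and KPC 2, against 2.00 and 2.42 CPM in wild type 1 and wild type 2. Both genes were named after their values were seen.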
